A study of Homo sapiens with 12 samples.

Results

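The plasminogen activators, their receptor and 2 serpins that inhibit them were followed in the triple-negative human breast cancer line MDA-MB-231, 24 h after transfection with 30 nM of a locked nucleic acid (LNA) gapmer. One group received a gapmer against the long noncoding RNA CYTOR and the other a control gapmer, so that both groups had gone through the same lipid transfection. An LNA gapmer is a short antisense oligonucleotide that recruits RNase H to the RNA it pairs with. Each group held 6 single-colour Illumina bead arrays, all on 1 chip, and the labels put 1 CYTOR LNA and 3 control arrays in batch 1 and 5 CYTOR LNA and 3 control arrays in batch 2. The set was chosen by name, PLAU, PLAUR, PLAT, SERPINE2 and SERPINB2, and takes every probe annotated to one of these 5 genes under a current or older symbol. It comprised 6 probes of 4 genes: 3 for PLAUR and 1 each for PLAU, PLAT and SERPINE2. The array annotation used here names no probe for SERPINB2, which was not analysed here. In all, 20046 genes had a named probe.

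Plasminogen activation is a proteolytic cascade at the cell surface. Urokinase, the product of PLAU, and tissue-type plasminogen activator, the product of PLAT, cut plasminogen to plasmin, a broad serine protease that dissolves fibrin and cuts matrix proteins and latent metalloproteinases. The urokinase receptor, PLAUR, is held in the membrane by a glycolipid anchor and concentrates urokinase on the cell, and it also binds vitronectin and works with integrins. The serpins SERPINE2 (protease nexin-1) and SERPINB2 (plasminogen activator inhibitor 2) trap the activators in inactive complexes, and SERPINE2 also inhibits thrombin. In breast cancer, urokinase and its receptor are long-studied markers of invasion.

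Values were as deposited, on a log2 scale, for 47323 probes, and the median of each array lay at 6.53. All 6 probes of the set were above the median of the probe means (6.52), the lower limit for testing, and none was left out. CYTOR itself was 2.15-fold lower at its brightest probe (95% CI 1.98 to 2.33, limma adjusted p = 8.0e-13), and the 6 silenced arrays did not overlap the 6 controls. Its other probes were 1.59-fold and 1.09-fold lower, and at the last, dim one (ILMN_3230572, adjusted p = 0.022) the groups overlapped. The 5 markers of a mesenchymal line (VIM, CD44, AXL, MSN, CAV1) all lay above the probe median, with VIM at 13.3 in both groups. Of the 6 luminal markers 5 lay above it as well. EPCAM had 7.84 and 7.98 and ERBB2 7.81 and 7.76 in silenced and control cells. CDH1 (6.52 in both groups), GATA3 (6.56 and 6.55) and PGR (6.64 and 6.58) lay close to the probe median of 6.52. The oestrogen receptor gene ESR1 (6.48 and 6.47) lay below the probe median. Above it were also 2 of 4 leukocyte markers, among them CD68 at 10.9 and 10.8, 2 of 5 fibroblast markers and 1 of 3 endothelial markers, while the leukocyte marker PTPRC (6.43 and 6.46) was below. Of these markers CD14 was called higher (8.05 against 7.68, 0.33, adjusted p = 0.00057), and CD44 (-0.21, adjusted p = 0.034) and PECAM1 (-0.13, adjusted p = 0.037) lower, and their part in the results below was not tested. Summed levels of the 4 leukocyte markers ran from 11.14 to 11.31 over the silenced arrays and from 11.01 to 11.25 over the controls. Those of the 5 fibroblast markers ran from 8.84 to 8.93 and from 8.84 to 8.92. Values were summed unlogged, so that CD68 makes up most of the leukocyte sum. Like PTPRC, the leukocyte marker CD3E (6.42 and 6.47) lay below the probe median. Since no label says that replicates were separate cultures, the p-values below cover the spread among these arrays, part of which may be technical.

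PLAU, the urokinase gene, was the only one of the 4 measured genes whose expression passed the test, and it fell. Its probe ILMN_1656057 had values from 9.86 to 10.05 with a median of 9.94 over the 6 CYTOR LNA arrays, and from 10.14 to 10.30 with a median of 10.22 over the 6 control arrays. The groups did not overlap: the highest silenced array was 0.086 below the lowest control. The means were 9.95 ± 0.07 (SD, n = 6) and 10.22 ± 0.06 (SD, n = 6). The difference was -0.27 on the log2 scale (SE 0.055, 95% CI -0.38 to -0.15, limma with batch, adjusted p = 0.0025 over 23662 probes). This is 1.20-fold lower (95% CI 1.11 to 1.30), or 83.0% of the control level. An exact permutation test, two-sided over all 924 splits of the arrays, gave p = 0.0022 and, with labels permuted within batch (224 splits), p = 0.0045, in each case the smallest value the test allows. RNA of whole cultures was measured, so that fewer cells expressing a gene and less RNA per cell cannot be told apart.

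Of the 6 probes of the set, 1 was called, where 6.23% of all tested probes were called in either direction, 4.11% as lower and 2.12% as higher. Non-overlapping groups were found for 1 of the 6 probes and for 5.24% of all tested probes. The size of the PLAU fall was ordinary among the genes that fell: 312 of 687 fallen genes fell further, and their median was -0.26. PLAU spans 8.66 kb, at chr10:73908832-73917494 (GRCh38.p14), and 10.0% of the fallen genes were shorter, their median length being 83.0 kb against 27.2 kb for all tested genes. PLAT spans 32.8 kb, PLAUR 24.1 kb and SERPINE2 64.2 kb. The residual spread of the PLAU probe between arrays, 0.067, was below the median of 0.10 of the 500 tested probes nearest to it in brightness.

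**Figure D1:**
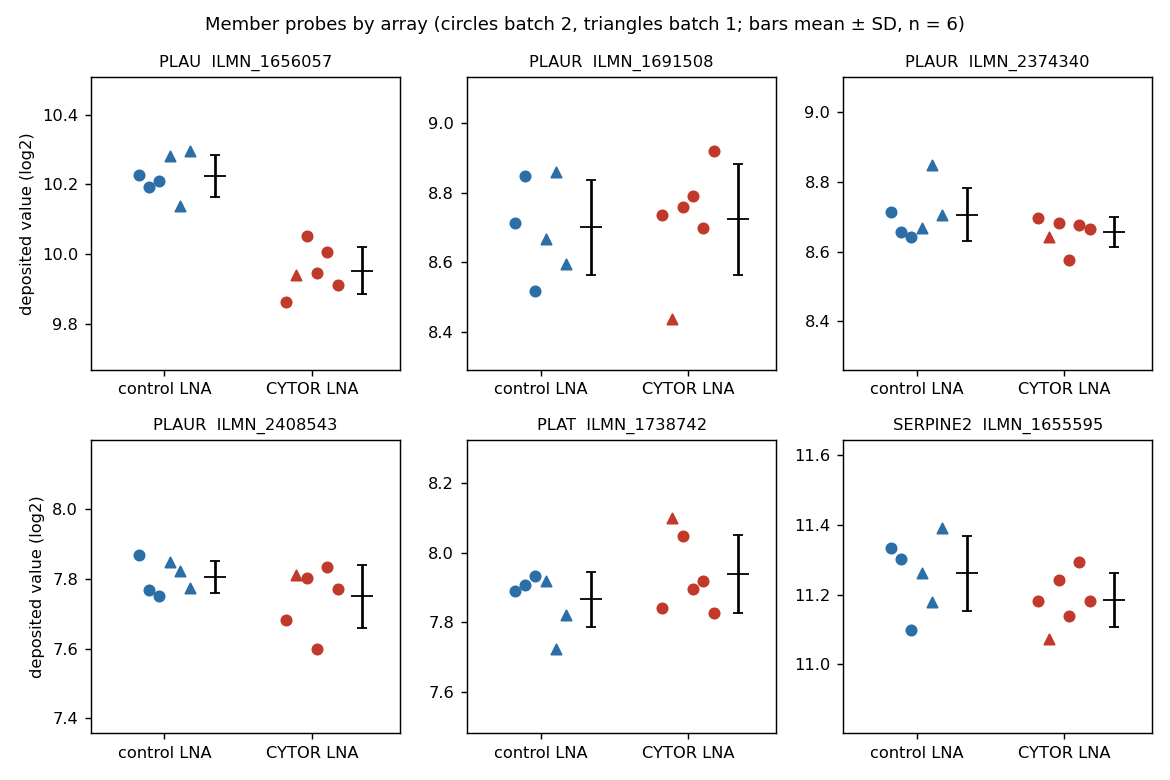
Deposited log2 value of each member probe on each array, control LNA in blue and CYTOR LNA in red, with batch 1 as triangles and batch 2 as circles. Black bars give the mean ± SD (n = 6), every panel spans the same log2 range, and only the PLAU panel has groups that do not overlap.

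The fall of PLAU had similar values in both batches. Within batch 2, with 5 silenced and 3 control arrays, the difference was -0.26 (SE 0.062, limma adjusted p = 0.0065). In batch 1 the single silenced array differed by -0.30 from its 3 controls (SE 0.120, adjusted p = 0.091, the lone array being assumed to vary like the others), which did not pass. The test of the difference between the batches gave 0.045 (batch 2 minus batch 1, adjusted p = 0.88). Left-out arrays, 1 at a time, moved the PLAU change only between -0.29 and -0.25, with adjusted p from 0.0014 to 0.012 in these 12 fits.

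**Figure D2:**
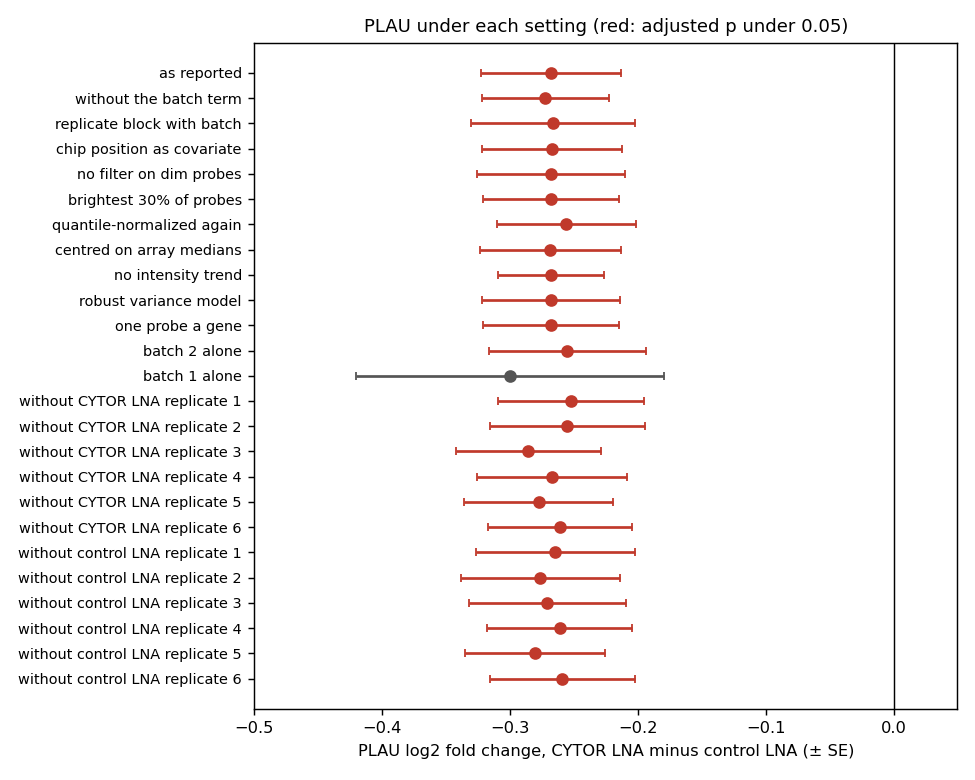
Log2 fold change of PLAU, CYTOR LNA minus control LNA, with its standard error as a bar, as reported and under each of the 24 other settings. The points lie between -0.30 and -0.25, and all but batch 1 alone, with its single silenced array, have an adjusted p under 0.05.

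The PLAU locus was examined for its neighbours and its promoter, since it carries the change. The nearest tested protein-coding genes on either side did not pass: CAMK2G, a calmodulin-dependent kinase gene 34.3 kb away, had a log2 fold change of -0.00045 (SE 0.046, adjusted p = 0.998). VCL, which encodes the adhesion protein vinculin, lies 80.6 kb away on the other side and had -0.06 (SE 0.053, adjusted p = 0.63). The noncoding gene C10orf55 overlaps PLAU, and its probe, with means of 6.51 and 6.50, was too dim to be tested. RefSeq lists a pair of PLAU start sites in its promoter table, both inside the gene span given above. The 250 bases before the downstream one and before the single PLAUR start are shown, because PLAU fell and the gene of its receptor did not pass. Capitals mark, in PLAU, 3 matches to the Sp1 box GGGCGG and a TATA-like match to TATANA, and, in PLAUR, a match to the AP-1 motif TGANTCA and one to the ETS motif GGAAGT.
PLAU, chr10:73910882-73911131, plus strand: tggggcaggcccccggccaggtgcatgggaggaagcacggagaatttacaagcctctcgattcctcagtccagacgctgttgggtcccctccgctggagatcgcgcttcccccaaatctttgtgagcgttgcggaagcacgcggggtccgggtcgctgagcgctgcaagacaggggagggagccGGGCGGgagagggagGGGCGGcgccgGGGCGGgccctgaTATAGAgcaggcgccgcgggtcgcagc
PLAUR, chr19:43670170-43670419, minus strand: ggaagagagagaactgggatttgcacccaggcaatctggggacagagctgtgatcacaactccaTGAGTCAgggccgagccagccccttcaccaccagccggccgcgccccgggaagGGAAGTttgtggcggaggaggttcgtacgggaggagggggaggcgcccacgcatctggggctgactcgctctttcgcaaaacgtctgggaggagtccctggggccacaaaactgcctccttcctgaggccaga
Motifs were searched on both strands in the same 250 bases of 35116 RefSeq promoter windows (GRCh38.p14), of which 42.6% hold the Sp1 box, 17.7% the TATA-like motif, 6.57% the AP-1 motif and 19.5% the ETS motif. The 3 Sp1 matches of PLAU begin 66, 51 and 40 bases before the start and the TATA-like match 27 bases before it. The AP-1 match of PLAUR begins 186 bases and the ETS match 133 bases before its start. Neither PLAU window holds the AP-1, ETS, CRE (TGACGTCA) or NF-kB consensus in these 250 bases. That absence says nothing of sites elsewhere, and the bases before the PLAU span itself were not searched. The windows of 6.57%, 19.5%, 1.65% and 9.96% of starts hold the AP-1, ETS, CRE and NF-kB consensus, in that order.

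PLAUR, the urokinase receptor gene, did not pass at any of its 3 probes, of which the annotation assigns 2 to one transcript and the third to another. Probe ILMN_1691508 ran from 8.44 to 8.92 with a median of 8.75 in silenced cells and from 8.52 to 8.86 with a median of 8.69 in controls. Here the control values lay wholly within the silenced range, and the log2 fold change, with the batch term, was -0.01 (SE 0.073, 95% CI -0.16 to 0.14, limma adjusted p = 0.95). Its sign turned without that term (0.023), the group means being 8.72 in silenced cells and 8.70 in controls. Probe ILMN_2374340, of the same transcript, ran from 8.58 to 8.70 with a median of 8.67 and from 8.64 to 8.85 with a median of 8.69. All 6 silenced values were below the control mean, but so were control replicates 2, 3, 4 and 6. Control replicate 5, at 8.85, raised that mean. The groups overlapped and the change of -0.04 did not pass (SE 0.053, 95% CI -0.14 to 0.07, limma adjusted p = 0.79). Probe ILMN_2408543, of the other transcript, ran from 7.60 to 7.83 with a median of 7.79 and from 7.75 to 7.87 with a median of 7.80. The groups overlapped here too, and the change was -0.04 (SE 0.050, 95% CI -0.15 to 0.06, adjusted p = 0.72). Exact two-sided permutation tests gave p = 0.79, 0.23 and 0.23 for the 3 probes.

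The PLAUR probes differed in how steady they were. Probe ILMN_1691508 had SDs of 0.16 in silenced cells and 0.14 in controls (n = 6 each), against 0.04 and 0.08 for ILMN_2374340, although both are assigned to 1 transcript and have group means between 8.66 and 8.72. After group and batch were fitted, the spread of ILMN_1691508 exceeded that of 88.0% of the 500 tested probes nearest in brightness, and that of ILMN_2374340 exceeded 11.6% of its own 500. Their changes did not differ from each other beyond the spread: the within-array difference between these 2 probes changed by 0.07 (SE 0.081, exact permutation p = 0.38), and the other pairings of PLAUR probes gave 0.08 (SE 0.100, p = 0.45) and 0.01 (SE 0.042, p = 0.88). These values have no batch term, and adjusted for batch they were 0.021, 0.028 and 0.0068 (exact permutation within batch, p = 0.78, 0.80 and 0.875).

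PLAT, which encodes the other activator, had a higher mean after CYTOR silencing but did not pass. Its probe ILMN_1738742 ran from 7.83 to 8.10 with a median of 7.91 in silenced cells and from 7.72 to 7.93 with a median of 7.90 in controls. Only CYTOR LNA replicates 2 and 3, at 8.10 and 8.05, lay above every control, and the other 4 lay within the control range. The log2 fold change was 0.08 (SE 0.057, 95% CI -0.04 to 0.19, limma adjusted p = 0.53, exact permutation p = 0.23). It rested on replicate 2, the single silenced array of batch 1: without that array the value was -0.0042 (adjusted p = 0.98). Within batch 1 the difference was 0.28 (adjusted p = 0.0503), and the test of the difference between batches gave an unadjusted p of 0.015 and an adjusted p of 0.14.

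SERPINE2, the protease nexin-1 gene and the brightest probe of the set, had a lower mean after silencing that did not pass. Probe ILMN_1655595 ran from 11.07 to 11.29 with a median of 11.18 in silenced cells and from 11.10 to 11.39 with a median of 11.28 in controls. Of the 6 silenced arrays 5 lay below the control mean and 1 below the lowest control. The log2 fold change was -0.08 (SE 0.058, 95% CI -0.20 to 0.03, limma adjusted p = 0.47, exact permutation p = 0.19). Without CYTOR LNA replicate 2 it was -0.04, and the lowest value without any 1 array was -0.14, in each case without a call.

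**Figure D3:**
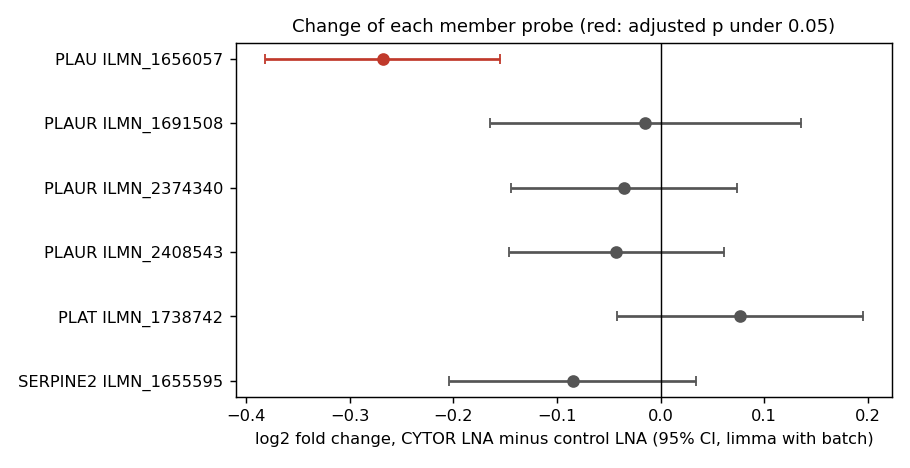
Log2 fold change of each member probe, CYTOR LNA minus control LNA, with its 95% confidence interval from limma with batch as a term. The interval of PLAU runs from -0.38 to -0.15, and those of the other 5 probes include 0.

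CYTOR LNA replicate 2 held the extreme silenced value of 3 probes: it was the lowest for PLAUR ILMN_1691508 (8.44) and SERPINE2 (11.07) and the highest for PLAT (8.10). For PLAU it lay at 9.94, near the middle of its group. Over all tested probes its correlations with the other arrays ran from 0.991 to 0.995, while the highest correlation of each other array was between 0.997 and 0.998. Its batch held no other silenced array, so that an effect of this single array and an effect of CYTOR LNA particular to batch 1 cannot be told apart. For PLAUR ILMN_1691508 the change within batch 1 was -0.27 (adjusted p = 0.11) and within batch 2 0.09 (adjusted p = 0.55), with an unadjusted p of 0.013 and an adjusted p of 0.13 for the difference.

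**Figure D4:**
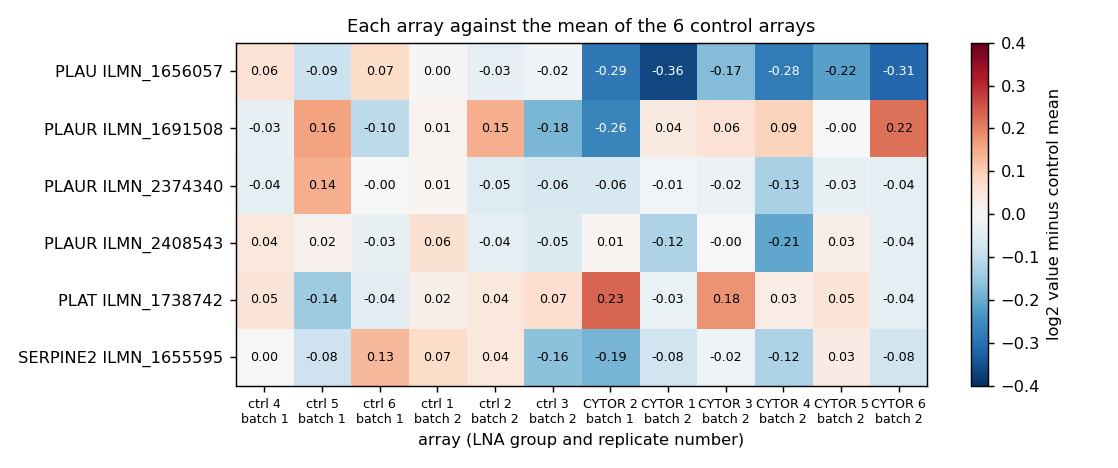
Log2 value of each member probe on each array minus the mean of the 6 controls, columns ordered by group and batch. The PLAU row is negative on all 6 CYTOR LNA arrays, from -0.36 to -0.17, while the CYTOR LNA replicate 2 column holds -0.26 for PLAUR ILMN_1691508, 0.23 for PLAT and -0.19 for SERPINE2.

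Whether the members changed by unequal amounts was tested with the within-array log2 difference between the brightest probes of 2 genes, in exact two-sided permutation tests over 6 pairs with Benjamini-Hochberg adjustment. PLAU moved down relative to PLAT by -0.34 (SE 0.049, adjusted p = 0.0065) and relative to SERPINE2 by -0.20 (SE 0.046, adjusted p = 0.0065), and for both pairs the groups did not overlap. Relative to the brightest PLAUR probe it moved by -0.30 (SE 0.103, adjusted p = 0.048). This call was lost with labels permuted within batch, where the batch-adjusted value was -0.25 and the adjusted p 0.098. Against the 2 other PLAUR probes, compared after the first values had been seen, PLAU moved by -0.22 in both cases (exact permutation p = 0.011 and 0.0043). The 3 pairs without PLAU did not pass: PLAUR against PLAT gave -0.05 (SE 0.129), PLAUR against SERPINE2 0.10 (SE 0.088) and PLAT against SERPINE2 0.15 (SE 0.083, adjusted p = 0.15).

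With group means removed, the member probes and the brightest CYTOR probe gave 21 pairwise relations over the 12 arrays. None passed adjustment (smallest adjusted p = 0.31), and 3 had an unadjusted permutation p under 0.05 by either measure. One was PLAUR ILMN_1691508 with CYTOR (Pearson r = 0.69, permutation p = 0.020; Spearman rho = 0.64, p = 0.038), where r was 0.63 without the 2 arrays farthest from the median and 0.64 within batch 2. Another was the same PLAUR probe with PLAT (r = -0.65, permutation p = 0.029; rho = -0.57, p = 0.068), where r was -0.35 without 2 such arrays and -0.43 within batch 2. The third, by Spearman alone, was PLAU with SERPINE2 (rho = 0.61, permutation p = 0.046; r = 0.54, p = 0.080), where r was 0.36 without 2 such arrays and 0.41 within batch 2. PLAU gave r = -0.27 with CYTOR (permutation p = 0.41). Batch 1, with 1 silenced array, is too small for a value of its own.

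By Pearson r over the 12 arrays, a measure that includes the group difference, the genes most like PLAU were HSD17B4, a peroxisomal enzyme of fatty acid breakdown (r = 0.97), PPP2R1A, a scaffold subunit of protein phosphatase 2A (0.96), and METAP1, a methionine aminopeptidase (0.96). All 3 fell, by 0.19, 0.46 and 0.57 on the log2 scale. For the brightest PLAUR probe they were METTL1 (0.96), SCNM1 (0.96) and NT5C (0.95), for PLAT FAM107B (0.93), ZFYVE16 (0.91) and UBAP2 (0.89), and for SERPINE2 BAIAP2L1 (0.88), PRKCD (0.87) and SORL1 (0.84). None of these 9 passed the test between groups. The highest of 12714 genes were taken in each case, all arrays share 1 chip, and no p is attached.

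Beyond the set, 119 genes of the plasminogen system were placed in 7 lists, of which 79 were tested, 37 had probes too dim to be tested and 3 had no named probe. By limma 7 genes fell and none rose. At an unadjusted p under 0.05 the counts were 8 lower and 6 higher, which is 10.1% and 7.59% of those tested, beside 11.4% and 10.2% of all tested genes. The 7 calls are 8.86% of those tested, beside 5.4% of all tested genes that fell, 2.49% that rose and 7.89% called in either direction, and nothing is read from the share, since the lists were written with earlier results known. The median log2 change of each list lay between -0.04 and 0.04, beside 0.0037 for all tested genes.

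Among inhibitors and clearance receptors, 1 of 6 tested genes fell and none rose. This was LRP8, an endocytic receptor of the low-density lipoprotein receptor family, with means of 7.25 ± 0.04 and 7.54 ± 0.06 (SD, n = 6 each; -0.28, SE 0.043, adjusted p = 8.2e-05). Its second probe gave -0.13 (limma adjusted p = 0.015), and the groups did not overlap at the first. Only 2 of the 6 tested genes had a probe among the brightest 30%, and the others lay nearer the testing limit. LRP1, which clears urokinase and inhibitor complexes, and MRC2, an endocytic collagen receptor that associates with the urokinase receptor, had probes below the testing limit, with means of 6.46 and 6.47 for LRP1 and 6.49 and 6.50 for MRC2.

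None of the 8 tested plasminogen-binding surface proteins passed by limma, and 1, HMGB1 (0.17, adjusted p = 0.11), was higher at an unadjusted p under 0.05. The plasminogen receptor PLGRKT had -0.06 (SE 0.054, adjusted p = 0.64). The annexin A2 and S100A10 genes, whose products form a plasminogen-binding tetramer, had -0.03 (SE 0.038) and -0.03 (SE 0.045) at their brightest probes. Other probes gave -0.12 and 0.03 for annexin A2 and -0.01 for S100A10. In the limma fit with no filter on dim probes none of these passed, and the -0.12 had an unadjusted p of 0.027 (adjusted p = 0.30). PLG itself lay at 6.42 and 6.43, below the testing limit. Of the 5 tested clade B serpins, relatives of SERPINB2, none passed by limma, and 0 had an unadjusted p under 0.05. SERPINB13 (6.54 in silenced cells and 6.51 in controls), SERPINB9 (6.57 and 6.58) and SERPINB7 (6.72 and 6.76) lay near the testing limit. Little can be read from their lack of a call. Brighter were SERPINB1 (9.32 and 9.24) and SERPINB8 (7.62 and 7.56).

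In the list of membrane partners of the urokinase receptor, EGFR was the 1 of 16 tested genes that fell (-0.18, SE 0.053, adjusted p = 0.040), with overlapping groups and -0.01 at its second probe. This call was lost in 9 of the 12 fits that left out 1 array, the exceptions being CYTOR LNA replicates 2 and 6 and control replicate 5, and also with the replicate number as a block (-0.19, adjusted p = 0.076). In the activation cascade, IGFBP3, a growth factor binding protein that plasmin can cut, was the 1 of 14 that fell (-0.16, SE 0.043, adjusted p = 0.024). Its other probe gave -0.08, and leaving out control replicate 1, control replicate 2 or CYTOR LNA replicate 2 ended the call, as did taking batch 2 alone. In those last 2 fits CTSB, the cathepsin B gene, named here after its values were seen, was called higher (0.27 in both). With the batch term, leaving out CYTOR LNA replicate 2 gives the same estimates as batch 2 alone. The 2 fits are therefore 1 comparison. Of 21 transcription factors known at the PLAU and PLAUR promoters, 3 fell and none rose, each with groups that did not overlap. These were NFKB1 (-0.45, SE 0.057, adjusted p = 5.9e-06), the AP-1 subunit gene JUN, with means of 8.87 ± 0.12 and 9.09 ± 0.06 (-0.24, SE 0.062, adjusted p = 0.019), and its partner ATF2, with 6.84 ± 0.08 and 7.07 ± 0.07 (-0.23, SE 0.045, adjusted p = 0.0013). JUN lost its call when CYTOR LNA replicate 2 was left out (-0.13, limma adjusted p = 0.21). The same holds in batch 2 alone, which is the same comparison and leaves 2 that fell. Of 9 RNA-binding proteins HNRNPD, which encodes the RNA decay factor AUF1, fell (-0.19, SE 0.050, adjusted p = 0.020). Its other probe gave -0.11, and leaving out CYTOR LNA replicate 2, control replicate 1 or control replicate 3 ended the call.

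**Figure D5:**
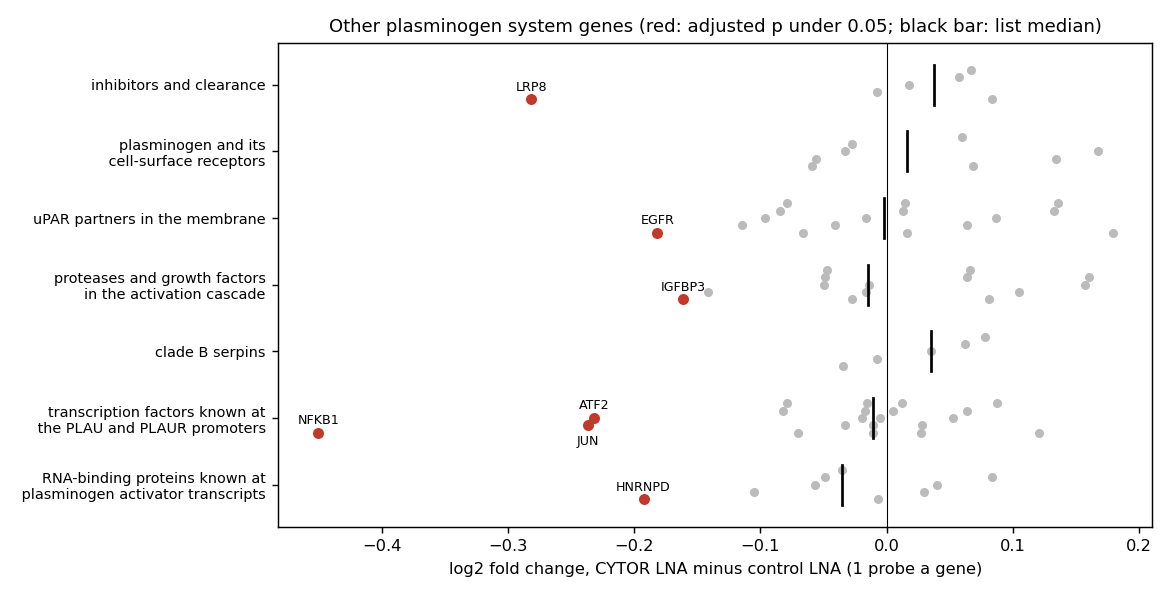
Log2 fold change, CYTOR LNA minus control LNA, of the 79 tested genes of 7 plasminogen system lists, 1 probe a gene, with called genes in red and named and list medians as black bars. The 7 called genes all lie below 0, from -0.45 (NFKB1) to -0.16 (IGFBP3), and the list medians lie between -0.04 and 0.04.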

How the data were processed

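The deposited values are log2, with an array per column and 48107 rows of probes, 784 of them empty. Per the submitters' processing notes the authors used lumi. Its version, the transformation and the normalization were not given in the sources used here, and a variance-stabilizing transformation would compress folds of dim probes. Groups, replicate numbers and batches came from the labels. Probes were named through the platform annotation and RefSeq (GRCh38.p14) gene IDs: 30113 had 1 symbol, 8 several and 17202 none.

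Probes at or above the median of the probe means were tested (23662 probes, 12714 genes, the brightest probe standing for a gene). Group and batch were terms of a limma 3.58.1 fit (R 4.3.3) with an intensity trend and 9 residual degrees of freedom, and p-values were Benjamini-Hochberg adjusted across every tested probe, with a threshold of 0.05. It was tested on simulated data. Single values were also tested by exact permutation. The number of arrays, 6 a group, limits the precision.

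Named were all member probes, every called list gene, the core partners of the cascade and the 3 genes most like each member. Neighbouring genes, motifs and other list members were added later. The members and lists were chosen with earlier results of these data known. Same-numbered samples are not said to share a culture, their deviations correlated at -0.17 to 0.18, and they were treated as unpaired.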

Additional observations from a re-analysis of the deposited data

Results flagged for a closer look

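In 14 groups of 6 arrays (6 member probes and the brightest CYTOR probe, 2 groups each), 1 sample lay far from the rest of its group. Control replicate 5 had 8.85 at PLAUR probe ILMN_2374340, with the next highest control at 8.71. The gap was 0.66 of the group's range, above the critical value of 0.625, which chance passes in about 1 in 20 groups. The same array was also the highest control at PLAUR ILMN_1691508 (8.86) and the lowest at PLAT (7.72) and PLAU (10.14).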

How the results depend on the processing

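PLAU kept its direction in all 24 other settings and its call in 23, from -0.30 to -0.25, and lost the call only in batch 1 alone (-0.30), which has a single silenced array. With the replicate block it was -0.27 (adjusted p = 0.017), and the block changed no call of a member probe, but ended that of EGFR, so that the count of membrane partners became 0. SERPINE2 (-0.20 to -0.04) and 2 PLAUR probes, ILMN_2374340 (-0.10 to -0.01) and ILMN_2408543 (-0.06 to -0.0032), kept their direction and never passed. PLAUR ILMN_1691508 turned to 0.023 without the batch term and 0.088 within batch 2, and ran from -0.093 to 0.088 over left-out arrays. Its permutation test over all splits used the plain difference of 0.023, and the test within batch used the batch-adjusted -0.015. PLAT turned to -0.0042 within batch 2 and ran from -0.0042 to 0.10 over left-out arrays, with 0.28 within batch 1. None of these passed. PLAU against the brightest PLAUR probe lost its call with labels permuted within batch (batch-adjusted value -0.25). Called probes numbered 1475, from 1143 to 1575 over left-out arrays and 2574 in batch 1 alone. The count of 1 membrane partner became 0 with no filter on dim probes or when a gene's probes were averaged, and ran from 0 to 1 over left-out arrays. The cascade count of 1 became 2 with averaged probes, 1 lower and 1 higher, and ran from 0 to 1 over left-out arrays. Within batch 2 and without CYTOR LNA replicate 2 its 1 call was a rise, of CTSB, and not the IGFBP3 fall. The transcription factor count of 3 became 2 in these same fits. Both give the same estimates, since CYTOR LNA replicate 2 is the only silenced array of batch 1. Among the 24 settings they are therefore 1 comparison. The RNA-binding count of 1 became 2 within batch 2 and 0 with averaged probes, and ran from 0 to 1. The surface receptor count of 0 became 1 without CYTOR LNA replicate 3. List counts in batch 1 alone, with its single silenced array, also moved and included rises, and are not given here. The causes were not tested.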

Other observations

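One of the 2 RefSeq promoter windows of SERPINE2 holds 7 matches to the letters CCAAT, on either strand, in the 250 bases before the start, and 0.020% of the 35116 windows hold at least as many. The matches begin 250, 215, 181, 138, 104, 61 and 27 bases before the start. Their spacing is fairly regular, and whether they belong to a repeated stretch of sequence was not examined. SERPINE2 itself did not pass the test between groups. In the other SERPINE2 window there is no match.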
